A study of Mus musculus with 15 samples.

Results

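A set of 10 genes of the colon's defence against microbes, *Reg3b*, *Reg3g*, *Reg4*, *Retnlb*, *Lypd8*, *Ang4*, *Mptx1*, *Pigr*, *Nos2* and *Duox2*, was followed through 15 pooled RNA-Seq libraries of mice fed 3 diets. They were matched by symbol, each to 1 of the 23589 loci that carry a gene name, and all 10 were among the 18242 genes with at least 1 count in the colon. The set was chosen by name with the raw counts of the 3 colon libraries in view, in which *Reg3b* and *Reg3g* had been seen to be lower in both comparisons with AL, so the diet differences of the 10 genes in the colon are given as a description and not as a test.

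The mice were male C57BL/6. The AL group was fed ad libitum and was 5 months of age. The DR group received 60% of the food eaten by the AL mice for 1 month from 4 months of age and was also 5 months of age, and the DR-AL group went through the same month of DR, returned to AL feeding for 2 months and was 7 months of age. No AL library of 7 months was analysed here, so refeeding and age cannot be told apart in DR-AL. RNA of 5 mice was pooled for each of colon, liver, epididymal fat, hypothalamus and hippocampus, and each pool gave 1 library. A difference between 2 libraries therefore has no replicate check, and every interval below covers counting error only. The colon was the intestinal mucosa according to the methods, and whether the same segment was taken in each group was not stated in the sources used here.

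The epithelium of the colon is separated from the dense bacteria of the lumen by mucus, by secreted antibacterial proteins and by IgA. Reg3 proteins are lectins that bind bacterial cell walls, Ang4 is a ribonuclease of the angiogenin family with antibacterial activity, and Retnlb (RELMβ) is secreted by goblet cells. Lypd8 keeps flagellated bacteria away from the epithelial surface, Pigr carries IgA across the epithelium, and Duox2 and Nos2 produce hydrogen peroxide and nitric oxide. Reg4 is a lectin of secretory cells in the crypt, and Mptx1 is a pentraxin of the gut mucosa. Reg3 and Retnlb genes are known to respond to bacteria and to interleukin-22.

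The colon libraries held 26554699 (AL), 33422262 (DR) and 25043727 (DR-AL) counts on named loci. Counts are given as counted and as CPM, which are counts scaled to the same total of named loci in every library, and levels of different genes are compared by the deposited FPKM values, which are scaled by length. In the colon libraries 7 epithelium markers summed to between 14814 and 17388 CPM, whereas the 4 α-defensin genes listed as Paneth cell markers (*Defa24*, *Defa17*, *Defa22* and *Defa5*) had 0 counts in all 3. A gene was called lower or higher between 2 libraries by the rule of the study's methods, a Z test on square roots of counts that had to pass 0.05 after Benjamini-Hochberg adjustment, together with a log2 fold change of at least 0.32 in size.

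By FPKM, *Lypd8* was by far the most abundant of the 10 genes in the colon, at 13819, 14079 and 14089.5 in the AL, DR and DR-AL libraries. It was followed in all 3 colon libraries by *Mptx1* at between 1134 and 1925 FPKM and *Pigr* at between 689.5 and 886 FPKM. *Nos2* was the lowest in all 3, at between 0.567 and 0.691 FPKM. In AL the next genes were *Reg3b* at 335 FPKM, *Ang4* at 247, *Reg4* at 212, *Retnlb* at 95.7, *Reg3g* at 75.1 and *Duox2* at 33.5. Of these, *Reg3b* ranked 4 of the 10 genes in AL but 8 of 10 in both other libraries. Together the set took between 1.96% and 1.98% of the counts in each colon library, a sum in which *Lypd8* was the largest part.

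**Figure D1:**
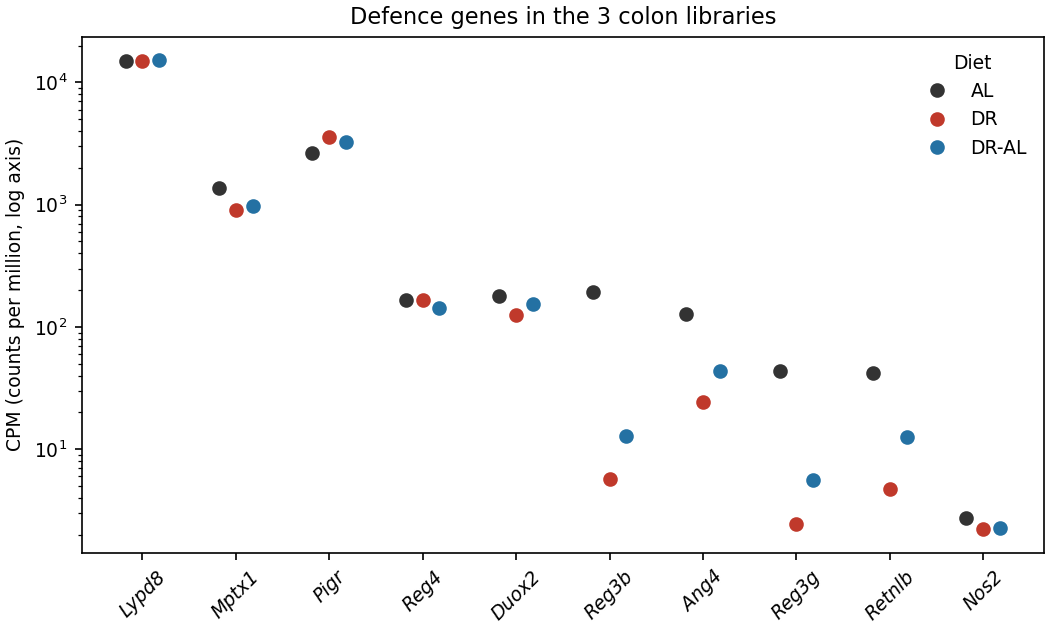
Level of the 10 defence genes in the 3 colon libraries, in CPM on a log axis, with 1 point per library of RNA pooled from 5 mice (AL black, DR red, DR-AL blue) and no error bar because there is 1 library per diet. *Reg3b*, *Ang4*, *Reg3g* and *Retnlb* stand highest in AL, lowest in DR and between them in DR-AL, while *Lypd8* lies between 14872 and 15186 CPM in all 3.

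Between the DR and AL colon libraries, 6 of the 10 genes were lower (*Reg3b*, *Reg3g*, *Retnlb*, *Ang4*, *Mptx1* and *Duox2*), 1 was higher (*Pigr*) and 3 were not called (*Reg4*, *Lypd8* and *Nos2*). The same rule called 19.7% of all genes tested in this comparison, 10.6% lower and 9.04% higher. Between the DR-AL and AL libraries, 5 of the 10 were lower and 0 higher, against 8.50% of all genes lower and 5.83% higher. With a fold change of at least 2, *Reg3b*, *Reg3g*, *Retnlb* and *Ang4* were lower in both comparisons, against backgrounds of 3.79% and 2.58% of all genes lower, 1.94% and 1.43% higher, and 5.73% and 4.01% in either direction. Under an edgeR exact test that assumed a coefficient of variation of 0.1 between samples, *Reg3b*, *Reg3g*, *Retnlb* and *Ang4* were called in DR, where 4.26% of all genes were, and under one that assumed 0.4 only *Reg3b* was, with 0.0110% of all genes. In DR-AL against AL the same 4 were called at 0.1, with 1.86% of all genes, and 0 of the 10 at 0.4, with 0.00% of all genes. The AL library is shared by both, and since the rule for the set used these comparisons, nothing is read from the counts. The median log2 fold change of the 10 genes was -0.56 in DR and -0.37 in DR-AL, and that of the 13714 genes averaging at least 10 counts was 0.01 and -0.01.

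*Reg3b* and *Reg3g* are neighbours on chromosome 6. In the RefSeq annotation of GRCm38.p6, *Reg3b* lies from 78370885 to 78373466 on the plus strand and *Reg3g* from 78466269 to 78468874 on the minus strand, with 92802 bases between them. Because they are paralogs that were lower together, the 250 bases before the RefSeq start of each are shown, followed by the same stretch of *Ang4*, another gene at least 2-fold lower in both comparisons. Capitals mark matches, on either strand, to TATAAA, TTCNNNGAA (the core bound by STAT factors) and a core related to NF-κB sites (GGGA, then 4 bases of any kind, then CC).
Reg3b promoter, chr6:78370635-78370884, plus strand: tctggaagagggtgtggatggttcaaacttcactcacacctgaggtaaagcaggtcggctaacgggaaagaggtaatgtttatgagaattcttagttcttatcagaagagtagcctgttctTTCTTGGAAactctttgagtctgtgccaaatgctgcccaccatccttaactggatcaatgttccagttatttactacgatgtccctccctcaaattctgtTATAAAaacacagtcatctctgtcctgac
Reg3g promoter, chr6:78468875-78469124, minus strand: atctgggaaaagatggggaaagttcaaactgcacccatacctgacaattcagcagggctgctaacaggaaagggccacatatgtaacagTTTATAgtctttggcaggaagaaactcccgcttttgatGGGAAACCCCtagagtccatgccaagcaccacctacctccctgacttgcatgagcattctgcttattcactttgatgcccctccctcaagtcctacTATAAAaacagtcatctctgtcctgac
Ang4 promoter, chr14:51773591-51773840, minus strand: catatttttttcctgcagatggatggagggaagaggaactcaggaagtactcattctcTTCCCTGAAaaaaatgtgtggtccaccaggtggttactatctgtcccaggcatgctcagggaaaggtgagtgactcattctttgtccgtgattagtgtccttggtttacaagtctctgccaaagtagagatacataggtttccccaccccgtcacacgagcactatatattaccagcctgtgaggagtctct

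Aligned end to end, the *Reg3b* and *Reg3g* windows were identical in 177 of 257 alignment columns (68.9%), and the 27 other pairs among the 8 members with a promoter in the RefSeq table ranged from 45.2% to 53.3%. *Retnlb* and *Nos2* were not among those 8. Both Reg3 windows held TATAAA on the coding strand, 29 and 27 bases before the start, and *Reg3g* held it on the other strand as well. The TTCNNNGAA match in *Reg3b* began 129 bases before the start and that in *Ang4* 192 bases before it, while the *Reg3g* window had a match to the NF-κB-related core 123 bases before the start. Of 32851 windows of this length in the table, 12.4% held TATAAA, 7.02% TTCNNNGAA and 17.6% the NF-κB-related core. The E-box CACGTG, searched as well, stood in 6.02% of all windows and in 1 of the 9 windows of these 8 members, that of *Pigr*. The NF-κB-related core was not limited to genes that were lower, since it was also in windows of *Pigr* and *Lypd8* (3 of 9 in all). TATAAA was also in the window of *Mptx1* (3 of 9), itself called lower in both comparisons, while TTCNNNGAA was in 2 of 9. These matches describe letters only.

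*Reg3b* had 5106, 191 and 320 counts in the AL, DR and DR-AL libraries, or 192, 5.71 and 12.8 CPM. It was 33.6-fold lower in DR than in AL (95% interval 29.1 to 39.1) and 15.05-fold lower in DR-AL than in AL (13.4 to 16.9). The AL library was the high one, and the DR-AL library stood 2.24-fold above DR (1.86 to 2.69). *Reg3g*, whose product kills Gram-positive bacteria, had 1148, 81 and 141 counts, or 43.2, 2.42 and 5.63 CPM. It was 17.8-fold lower in DR (14.2 to 22.6) and 7.68-fold lower in DR-AL (6.44 to 9.21), and DR-AL stood 2.32-fold above DR (1.76 to 3.09). Among the 10503 genes averaging at least 100 counts in the colon, ordered from the lowest log2 fold change, *Reg3b* ranked 2 in DR and 1 in DR-AL, and *Reg3g* ranked 3 and 2.

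The ratio of the 2 Reg3 genes is given as a description of 3 libraries. There were 4.45 counts of *Reg3b* per count of *Reg3g* in AL (4.17 to 4.75), 2.36 in DR (1.81 to 3.10) and 2.27 in DR-AL (1.86 to 2.79), so the AL ratio lay outside the counting intervals of the other 2 libraries. These intervals say nothing of the spread between mice, and the set was chosen with these counts in view. FPKM gave ratios of 4.46, 2.27 and 2.25. The paralogs share little sequence at the length of a read. Of 709 windows of 75 bases in the longest *Reg3b* transcript of GENCODE M21 and 2015 in that of *Reg3g*, 0 occurred in a transcript of another gene, and the best alignment of the 2 transcripts was 64.3% identical with no identical run over 17 bases. The other Reg genes were nearly absent from the colon libraries. *Reg1* had 4, 0 and 5 counts, *Reg2* 2, 0 and 0, *Reg3a* 3, 0 and 2, and *Reg3d* 0 in each. The rule called *Reg1* and *Reg3a* lower in DR, but against 0 counts their exact intervals reached folds of 1.20 and 1.92, so no difference is read from them.

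*Retnlb*, on chromosome 16 from 48816856 to 48818892, had 1106, 159 and 316 counts in the AL, DR and DR-AL libraries, or 41.6, 4.76 and 12.6 CPM. It was 8.75-fold lower in DR (7.41 to 10.4) and 3.30-fold lower in DR-AL (2.91 to 3.75), and DR-AL stood 2.65-fold above DR (2.19 to 3.23). That was the largest such fold of the 10 genes, but its interval overlapped those of *Reg3b* and *Reg3g*. *Ang4*, on chromosome 14 from 51763892 to 51773590, had 3386, 807 and 1084 counts, or 128, 24.1 and 43.3 CPM. It was 5.28-fold lower in DR (4.89 to 5.71) and 2.95-fold lower in DR-AL (2.75 to 3.16), with DR-AL 1.79-fold above DR (1.63 to 1.97). For all 4 genes the order of the libraries was AL, then DR-AL, then DR. Their summed level was 405, 37.0 and 74.3 CPM in the AL, DR and DR-AL libraries. Relatives of these genes were rare. *Retnla* had 10, 3 and 11 counts, *Retnlg* and *Ang2* had 0 in each, and *Ang* could not be read alone because it shares a locus with *Rnase4* in the deposited table. Of 635 windows of 75 bases in *Ang4*, 5 occurred in another gene, *Ang5*.

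**Figure D2:**
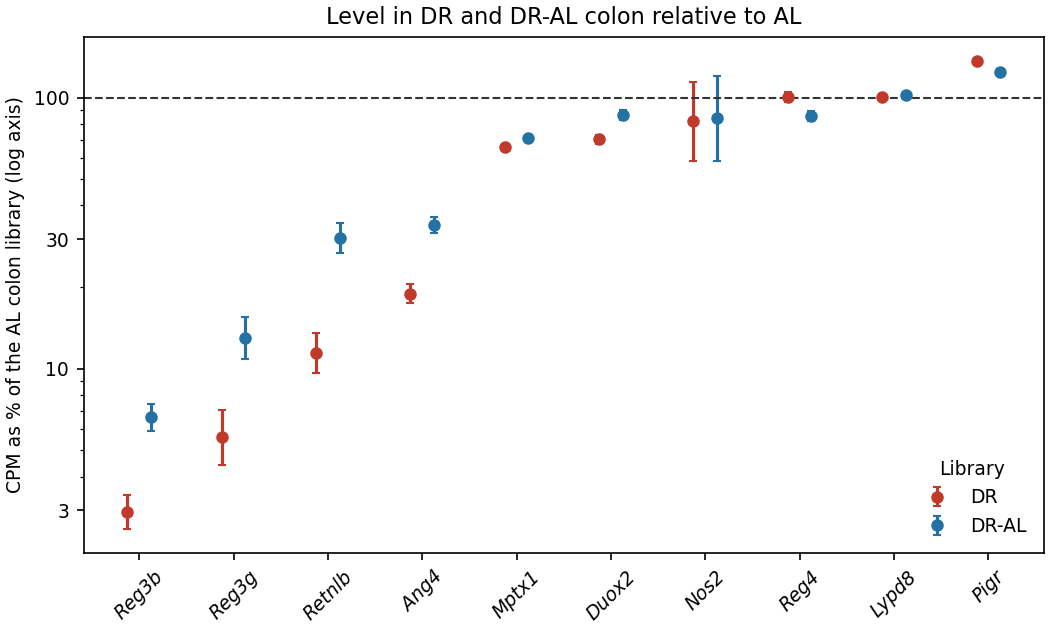
CPM of each gene in the DR (red) and DR-AL (blue) colon libraries as a percentage of the AL colon library, on a log axis, with exact 95% intervals for counting error only and a dashed line at 100%. *Reg3b* stood at 2.97% in DR and 6.65% in DR-AL, *Reg3g* at 5.61% and 13.0%, *Retnlb* at 11.4% and 30.3%, and *Ang4* at 18.9% and 33.9%, while the other 6 genes lay between 65.7% and 136%.

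The counts of the DR-AL and DR libraries were also in view when the genes were chosen, so their comparison is a description as well. Between these libraries, 4 of the 10 genes were called, all 4 higher. They were *Reg3b*, *Reg3g*, *Retnlb* and *Ang4*, against 6.78% of all genes higher and 7.67% lower. With a fold change of at least 2 the call ended for *Ang4*, and 6.13% of all genes were called, 2.96% higher and 3.17% lower. At an assumed coefficient of variation of 0.1 the edgeR exact test called *Reg3b*, *Reg3g*, *Retnlb* and *Ang4*, with 3.66% of all genes. At 0.4 it called 0 of the 10, with 0.0274% of all genes. The other 6 genes were not called, with log2 differences between -0.23 for *Reg4* and 0.31 for *Duox2*. *Duox2* was near the limit and passed as higher in 5 of the 11 settings tried, at 0.32 with DESeq or TMM factors and 0.42 with epithelium scaling. The rest of these settings were with FPKM, at 0.37 and 0.36, where the fold change alone counted and no test was run. *Mptx1* passed with FPKM alone, at 0.37. Between the same libraries 5 of 6 tested pancreas markers, 4 of 6 B and plasma cell markers and 4 of 6 macrophage markers were higher, and all 6 smooth muscle markers were lower. The part of these cells in the 4 calls was not tested.

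*Mptx1* and *Duox2* were lower by less. *Mptx1*, on chromosome 1 from 174330518 to 174332877, had 36318, 30013 and 24366 counts in the AL, DR and DR-AL libraries, or 1368, 898 and 973 CPM. It stood at 65.7% of AL in DR (64.7% to 66.7%) and 71.1% in DR-AL (70.0% to 72.3%), so both libraries were below AL. Of 725 windows of 75 bases in *Mptx1*, 73 also occur in its paralog *Mptx2*, which had 6, 5 and 9 counts. *Duox2*, on chromosome 2 from 122279246 to 122298740, had 4748, 4186 and 3876 counts, or 179, 125 and 155 CPM. It stood at 70.0% of AL in DR (67.2% to 73.0%) and 86.6% in DR-AL (82.9% to 90.3%), and only the first was called. *Duoxa2*, the maturation factor that Duox2 needs, had 769, 761 and 845 counts and was called lower in DR, at a fold of 0.786 (0.710 to 0.870), and not in DR-AL, at 1.17 (1.06 to 1.29). Of 6038 windows of 75 bases in *Duox2*, 234 also occur in another gene, and its paralog *Duox1* had 6, 10 and 6 counts.

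*Lypd8* and *Reg4* were not called in any comparison. *Lypd8*, on chromosome 11 from 58379032 to 58390541, had 394909, 499317 and 380311 counts in the AL, DR and DR-AL libraries, or 14872, 14939.7 and 15186 CPM, which are folds of 1.005 (1.000 to 1.009) and 1.021 (1.017 to 1.026) over AL. *Reg4*, on chromosome 3 from 98222138 to 98236748, had 4431, 5600 and 3577 counts, or 167, 168 and 143 CPM, with folds of 1.00 (0.965 to 1.04) and 0.856 (0.819 to 0.895). The sign of the small DR difference turned for both genes when the libraries were scaled to epithelium markers, to -0.18 on the log2 scale.

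*Pigr*, on chromosome 1 from 130826684 to 130852249, was the one gene of the 10 that was higher. It had 70372, 120496 and 82135 counts in the AL, DR and DR-AL libraries, or 2650.1, 3605 and 3279.7 CPM. Its fold over AL was 1.36 in DR (1.35 to 1.37) and 1.24 in DR-AL, the second a log2 fold change of 0.31 and just under the limit of 0.32. With epithelium markers as the scale, the log2 fold change in DR went from 0.44 to 0.25 and was not called, and with DESeq or TMM factors *Pigr* was called higher in DR-AL at 0.33. The J chain, which links the IgA that Pigr carries, moved the other way in DR. *Jchain* (*Igj* in the table) had 472, 177 and 409 counts in the AL, DR and DR-AL libraries, with log2 fold changes of -1.74 and -0.12. *Nos2* lies on chromosome 11 from 78920787 to 78960226. It had 72, 74 and 57 counts, and its fold intervals, 0.582 to 1.15 for DR and 0.582 to 1.20 for DR-AL, lie on both sides of 1, so no difference was detectable at this depth.

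**Figure D3:**
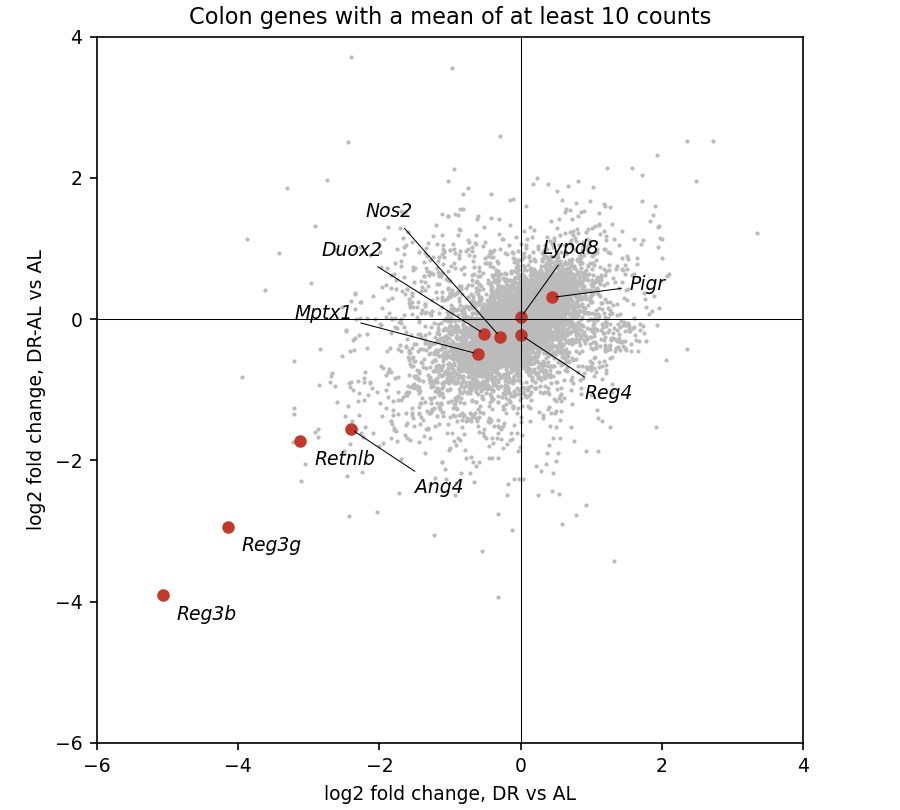
Log2 fold change of 13705 colon genes averaging at least 10 counts, DR against AL on the horizontal axis and DR-AL against AL on the vertical axis, with the 10 defence genes in red and 9 genes beyond the axes not drawn. *Reg3b* at -5.07 and -3.91 and *Reg3g* at -4.15 and -2.94 lie apart at the lower left, and the 2 axes share the AL library.

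The genes whose pair of log2 fold changes lay nearest to that of *Reg3b*, over the 3 colon libraries and among genes averaging at least 100 counts, were *Reg3g* at a distance of 1.34, *Retnlb* at 2.93, *Cyp3a44* at 3.17, *Acaa1b* at 3.41 and *Ang4* at 3.56. *Reg3g*, *Retnlb* and *Ang4* are members of the set, which was chosen with these same values in view, so their place here is no result. *Cyp3a44*, a cytochrome P450, had 240, 32 and 89 counts in the AL, DR and DR-AL libraries, and *Acaa1b*, a peroxisomal thiolase, had 434, 102 and 120.

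Markers of other parts of the gut and of other cells differed between the same libraries. Over all genes tested, 10.6% were called lower and 9.04% higher in DR against AL, and 8.50% and 5.83% in DR-AL against AL. Genes of small intestinal enterocytes summed to 233, 98.0 and 103 CPM in the AL, DR and DR-AL libraries, and 3 of 6 were called lower in DR and 4 of 6 in DR-AL. *Slc10a2*, the bile acid transporter of the ileum, had 3515, 1953 and 1458 counts, *Alpi*, intestinal alkaline phosphatase, 2301, 1073 and 915, and *Sis*, sucrase-isomaltase, 271, 76 and 121. The sum rests mostly on *Slc10a2* and *Alpi*. The other members of the list did not follow them throughout, since *Fabp6*, a bile acid binding protein of the ileum, had 69, 118 and 78 counts and was called in neither comparison, *Apoa4*, an apolipoprotein, had 33, 53 and 15 and was called lower in DR-AL only, and *Lct*, lactase, had 0, 1 and 0. *Hoxb13*, a gene of the distal colon, went the other way with 8356, 15283 and 11784 counts, and was 1.45-fold higher in DR (1.41 to 1.49) and 1.495-fold in DR-AL (1.45 to 1.54). *Hoxa13* was 1.30-fold higher in DR (1.23 to 1.38) and not called in DR-AL, *Hoxd12* was called lower in DR-AL, with 74, 125 and 42 counts, and *Hoxd13* was not called. These markers moved in the libraries in which the 4 genes fell, and their part in that result was not tested.

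Markers of goblet cells, which make Retnlb, were not called lower. Their sum was 8643, 10209.5 and 11608 CPM in the AL, DR and DR-AL libraries, with 0 of 7 called lower in either comparison. *Muc2*, the gel-forming mucin, was 1.57-fold higher in DR-AL (1.56 to 1.58). Of 8 colonocyte markers, 1 was called lower and 1 higher in each comparison, and *Car1* was the lower one in both, at 0.682 and 0.574 of AL. Crypt stem and dividing cell markers summed to 113, 251 and 108 CPM in the AL, DR and DR-AL libraries, with *Mki67*, a marker of dividing cells, 2.90-fold higher in DR (2.72 to 3.09). Smooth muscle markers summed to 60.1, 78.8 and 28.7 CPM, and all 6 were called lower in DR-AL. In bulk RNA, fewer cells of a type and less RNA per cell cannot be told apart, and the part of these cells in the results was not tested. Scaled to the epithelium markers, the log2 fold changes of the 4 genes ran from -5.26 for *Reg3b* to -2.59 for *Ang4* in DR and from -3.99 to -1.64 in DR-AL.

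Other genes of the same defences were read from lists, and no list was tested. Beside the calls of each list stand the shares over all genes tested. These were 10.6% lower and 9.04% higher in DR against AL, and 8.50% and 5.83% in DR-AL against AL. Of 20 tested loci of other secreted antibacterial proteins, 7 were lower and 3 higher in DR, and 3 were lower and 2 higher in DR-AL. Over the 13 averaging at least 10 counts, the median log2 fold changes were -0.29 and 0.14, and the medians of the lists below are taken in the same way. *Itln1*, a lectin that binds microbial sugars, had 71, 25 and 26 counts, which gave log2 values of -1.81 and -1.35 against AL. *Defb37*, a β-defensin, had 33, 15 and 12 counts, with -1.43 and -1.34. *Slpi*, an inhibitor of secreted proteases, was instead 2.42-fold higher in DR (1.99 to 2.96) and not called in DR-AL, with 137, 417 and 142 counts. *Pglyrp2* had 11, 4 and 16 counts and was called in neither.

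Among 14 loci for making hydrogen peroxide, superoxide and nitric oxide, 4 were lower and 3 higher in DR, and 2 were lower and 1 higher in DR-AL, with medians of -0.21 and -0.03. *Arg2*, the arginase that competes with Nos2 for arginine, had 337, 73 and 221 counts in the AL, DR and DR-AL libraries, with log2 fold changes of -2.53 and -0.52. *Arg1* had 35, 30 and 3 counts and was called lower in DR-AL alone. *Ncf1*, a subunit of the phagocyte oxidase, fell by 1.12 on the log2 scale in DR, from 80 counts to 46, and *Nox1*, the epithelial oxidase, was 1.68-fold higher in DR (1.28 to 2.21), with 82, 173 and 87 counts.

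Of 10 loci of plasma cells and IgA, 4 were lower and 0 higher in DR, and 1 was lower and 3 higher in DR-AL, with medians of -0.24 and 0.15. *Cd79a* and *Cd79b*, subunits of the B cell receptor, had 68, 26 and 187 and 59, 19 and 123 counts, lowest in DR and highest in DR-AL. The immunoglobulin genes *Ighm*, *Igha*, *Iglc1* and *Iglc2* had no matching symbol and were not analysed here. Of 20 loci of microbe sensing, 4 were lower and 1 higher in DR, and 4 lower and 0 higher in DR-AL, with medians of -0.23 and -0.16. *Tlr2*, the receptor for bacterial lipopeptides, had 782, 447 and 425 counts, at -1.14 and -0.79 on the log2 scale, and *Tlr5*, the flagellin receptor, had 163, 119 and 83 counts, with -0.78 and -0.89. *Ripk2*, the kinase below Nod1 and Nod2, was 1.77-fold higher in DR (1.48 to 2.12) and *Nod2* had 32, 23 and 21 counts and was not called.

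Of 17 tested loci of interleukin-22 and interleukin-17 signalling, 3 were lower and 2 higher in DR, and 1 was lower and 3 higher in DR-AL, with medians of -0.02 and -0.06. The cytokine *Il22* had 0 counts in all 3 colon libraries and *Il17a* had 2, 0 and 0, which at this depth sets only an upper limit. *Socs3*, a target and inhibitor of Stat3, had 273, 237 and 184 counts, at -0.53 and -0.48 on the log2 scale. *Il18*, an epithelial cytokine, had 2721, 4702 and 3644 counts and was higher in both, by 1.37-fold (1.31 to 1.44) and 1.42-fold (1.35 to 1.49), and *Il22ra2*, the soluble antagonist of interleukin-22, was 1.86-fold higher in DR-AL (1.34 to 2.62).

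**Figure D4:**
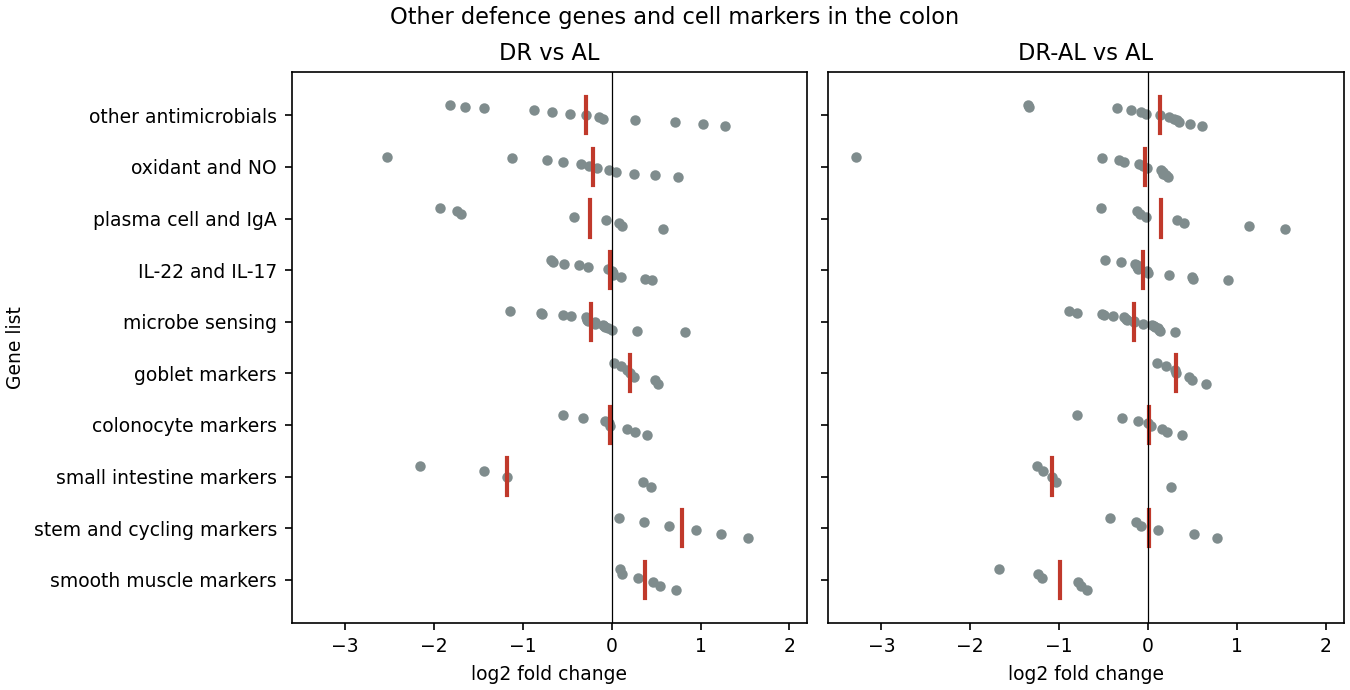
Log2 fold change of genes averaging at least 10 counts in the colon, DR against AL on the left and DR-AL against AL on the right, for 5 lists of defence genes and 5 lists of cell markers. Each grey point is 1 gene, the red line is the median of the list, and small intestine markers have medians of -1.18 and -1.08.

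Outside the colon the 10 genes ranged from the limit of counting to, for *Nos2* in fat by CPM, a level above that of the colon. *Reg3b*, *Reg3g*, *Ang4* and *Retnlb* had between 0 and 2 counts in each of the 12 libraries of other tissues, where a count of 0 allows up to 3 counts. *Pigr* had 1732, 1539.6 and 1471 CPM in the AL, DR and DR-AL liver libraries. All were below its colon level of between 2650.1 and 3605 CPM. Its FPKM ranges overlapped, at between 664 and 783 in the liver against between 689.5 and 886 in the colon. The ratio of FPKM to CPM differed between libraries, so the tissues are not set equal by FPKM.

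By CPM, *Nos2* was not highest in the colon, against the name of the set. It reached 9.96 CPM in AL fat, 12.0 in DR fat and 5.34 in DR-AL fat, against between 2.21 and 2.71 CPM in the colon, so that all 3 fat libraries stood above all 3 colon libraries. By FPKM this held for AL fat at 1.59 and DR fat at 1.09, whereas DR-AL fat, at 0.270, was below the colon. The ratio of FPKM to CPM differed between libraries, so no tissue difference is read from these FPKM values. In the hypothalamus and hippocampus *Nos2* lay between 0.544 and 0.977 CPM, and it had 1 count in each liver library.

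*Lypd8*, *Mptx1* and *Duox2* gave low counts in other tissues that differed between libraries. *Lypd8* had 522, 391 and 54 counts in AL, DR and DR-AL fat, 3, 41 and 34 in the liver, 278, 14 and 10 in the hypothalamus, and 54, 78 and 21 counts in hippocampal libraries, at most 0.134% of its AL colon level by CPM. *Mptx1* had 22 counts in the AL hypothalamus library against 2 and 1 in the others, and 37 in AL fat against 2 and 0. *Duox2* had between 0 and 21 counts in any library outside the colon. For *Mptx1* the AL library was the high one in both tissues, whereas for *Lypd8* it was so in the hypothalamus, and in fat AL and DR were both above DR-AL.

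**Figure D5:**
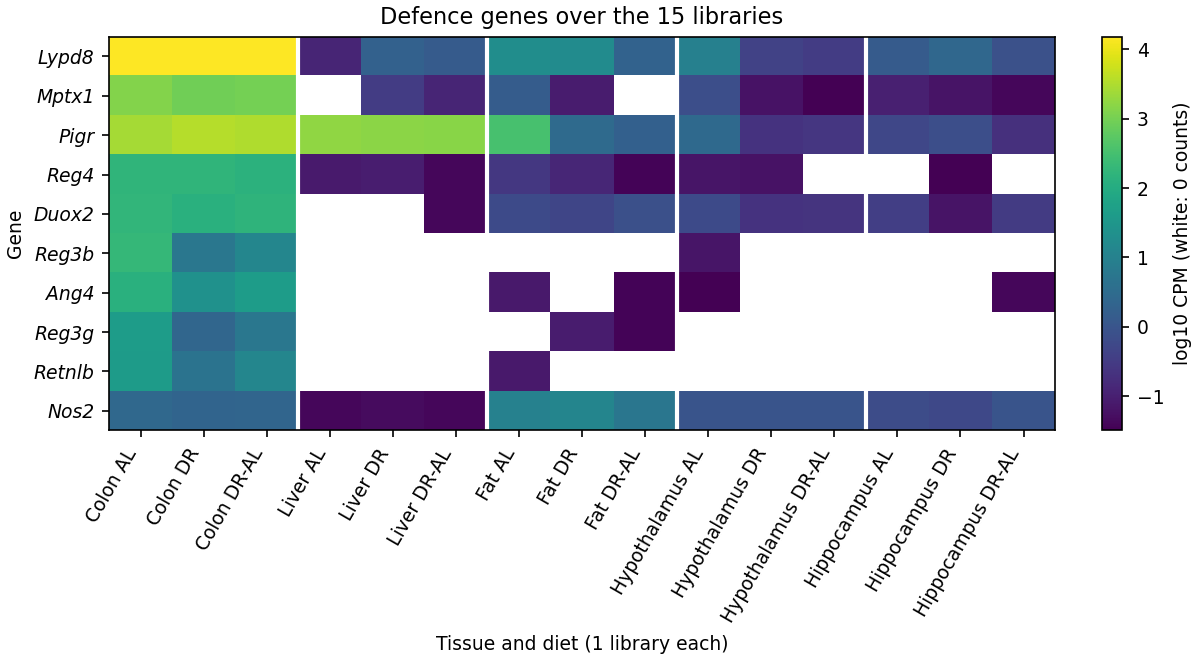
Log10 CPM of the 10 genes in all 15 libraries, with tissues in blocks of AL, DR and DR-AL and white for 0 counts. *Pigr* is high in both colon and liver, *Nos2* is highest in fat by CPM, and *Reg3b*, *Reg3g*, *Ang4* and *Retnlb* are at 0 to 2 counts in every library outside the colon.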

How the data were processed

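Paired-end reads of 75 bases came from stranded libraries depleted of ribosomal RNA, each from RNA of 5 pooled mice. The authors mapped them with Strand software to mm10, removed duplicates and normalised with DESeq, and the submitters' processing notes name mm9 and DESeq2. The deposited raw counts per locus and the deposited FPKM values were used. For a given gene the FPKM values were not a fixed multiple of CPM across libraries. *Nos2* had 9.96 CPM and 1.59 FPKM in AL fat, but 5.34 CPM and 0.270 FPKM in DR-AL fat. The reason was not tested, and no difference between tissues is read from FPKM. Raw counts of the 23589 named loci of 33603 (21767088 to 40500130 per library) gave CPM, and 10014 unnamed loci, with 0.258% to 1.39% of counts, were left out. Positions in the table are not those of GRCm38, so printed positions are RefSeq GRCm38.p6.

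The members and lists were chosen with earlier results of these data known. With 1 library per group, the Z test on square roots of counts (18242 colon genes, Benjamini-Hochberg) compares 2 libraries and not 2 diets, so no p-value is printed. Log2 fold changes used a pseudocount of 0.5 on counts scaled to the mean colon total, and 95% intervals were exact (Clopper-Pearson). Besides the members, their paralogs, the markers that moved with a result and the 5 genes nearest to *Reg3b*, the rule named up to 4 genes a list with the largest log2 fold change in size in either comparison with AL (mean of at least 10 counts). *Duoxa2*, *Il22* and *Il17a* were named outside it, after their values were seen. Some genes that the rule named are not reported here. Alternatives were DESeq size factors, TMM, totals without the 10 most abundant genes, epithelium-marker scaling, a mean of at least 10 counts, a fold of at least 2, an edgeR 4.0.16 exact test at an assumed coefficient of variation of 0.1 or 0.4, and FPKM with a pseudocount of 0.1 or 1. Calls needed 0.05 after adjustment and a log2 fold change of at least 0.32 in size. With FPKM no test was run, and the fold change alone made the call. The Z test was tested on simulated counts that held counting error only. That check had no spread between samples, so it says nothing of how the test behaves with such spread. Python 3.11.15, scipy 1.17.1 and Biopython 1.88 were used.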

Additional observations from a re-analysis of the deposited data

Results flagged for a closer look

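*Pigr* differed in opposite directions in colon and fat, and fat was not the only tissue in which DR was below AL. Between DR and AL its log2 fold change was 0.44 in the colon and -6.79 in fat, a difference that was not tested, because each group is 1 library. In fat it had 8728, 68 and 48 counts in the AL, DR and DR-AL libraries, so the AL fat library alone was high. In the hypothalamus *Pigr* had 82, 7 and 8 counts, again high in AL alone. It had 42843, 33512 and 36025 counts in the liver and 21, 23 and 5 in the hippocampus. *Lypd8*, *Mptx1* and *Duox2* were also high in the AL hypothalamus library, at 278, 22 and 18 counts. They had 14, 2 and 7 counts there in DR and 10, 1 and 7 in DR-AL. The cause was not tested.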

How the results depend on the processing

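No paired analysis was possible because each group holds 1 library, and for the same reason no replicate could be left out. Of 300 values under the alternatives, 259 kept their direction and call, 25 lost the call, 11 gained it and 5 turned in sign. Part of the 259 was fixed in advance. The settings with a fold of at least 2, a mean of at least 10 counts or an edgeR test reuse the main log2 fold changes, so no sign could turn. A gene not called by the main rule also could not be called with a fold of at least 2. The 259 are therefore no measure of stability. The 7 genes called in DR against AL became 4 with a fold of at least 2, 4 with the edgeR exact test at a coefficient of variation of 0.1, and 1 (*Reg3b*) at 0.4. The 5 called in DR-AL against AL and the 4 called in DR-AL against DR both became 0 at 0.4. The assumed spread is by construction what changes in these edgeR fits. Over all genes tested, the 3586, 2615 and 2636 calls of the 3 comparisons became 1045, 732 and 1118 with a fold of at least 2, 777, 339 and 667 at 0.1, and 2, 0 and 5 at 0.4. Signs turned for *Reg4* in DR (-0.18 with epithelium scaling, -0.042 with FPKM at either pseudocount) and for *Lypd8* with epithelium scaling (-0.18 in DR, -0.048 in DR-AL), and the cause was not tested. Over 11 settings *Reg3b* lay between -5.26 and -5.00 in DR and between -3.99 and -3.80 in DR-AL, and *Reg3g* between -4.34 and -3.87 and between -3.02 and -2.75. Higher genes were 46.0%, 40.7% and 46.9% of all calls in the 3 comparisons, and 16.5%, 23.7% and 66.8% with epithelium scaling, which moved the median of all genes to -0.18, -0.09 and 0.09. With FPKM, where the fold change alone counted, they were 42.3%, 59.7% and 65.3% at a pseudocount of 1, and 41.2%, 50.8% and 58.3% at 0.1.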

Other observations

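Other cell markers differed between the colon libraries. The shares called over all genes were 10.6% lower and 9.04% higher in DR against AL, and 8.50% and 5.83% in DR-AL against AL. Of 7 exocrine pancreas genes, 5 were called higher in DR-AL, where *Ctrb1* had 54 counts, *Cela2a* 55, *Pnlip* 41, *Prss2* 32 and *Cpa1* 30, against 0 to 2 in AL and DR. Of the other two, *Cela1* had 5814, 8487 and 5865 counts and *Amy2a5* had 0 in each. B and plasma cell markers summed to 27.0, 9.51 and 34.8 CPM in the AL, DR and DR-AL libraries, macrophage markers to 31.8, 26.3 and 37.3, and neutrophil markers to at most 0.479. Of the Paneth markers with counts, *Mmp7* had 15, 6 and 16 counts and *Lyz1* 105, 72 and 137. Both were called lower in DR against AL and higher in DR-AL against DR, and 1 was called higher in DR-AL against AL. Their part in the results was not tested.

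Of 14 clock genes, 1 was lower and 3 higher in DR, and 5 were lower and 3 higher in DR-AL. The shares over all genes were 10.6% lower and 9.04% higher in DR, and 8.50% and 5.83% in DR-AL. *Dbp*, a clock output gene, had 1983, 3271 and 774 counts in the AL, DR and DR-AL libraries, *Per3* had 1515, 1288 and 705, *Tef* 4799, 5325 and 2299, and *Hlf* 10, 28 and 12. Of 6 genes used as references, 1 (*B2m*, at a log2 fold change of -0.34) was called lower in DR and 0 in DR-AL.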
